A study of Mus musculus with 2 samples.

Results

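The regions described here are the DamID peaks that lay in long terminal repeat (LTR) sequence inside a gene body in mouse cleavage embryos. They were chosen by annotation alone: the repeat field of the deposited peak table names LTR, and the location field reads gene body. This gave 245 peaks of the 3492 in gene bodies and of the 8226 in the whole table, and 3247 other gene body peaks served for comparison. The annotation gives repeat classes and no element families, so the peaks could not be split into IAP, MERVL or MaLR elements.

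The study profiled 2 groups with 1 library each. The Dnmt1-Dam group was made of 50 embryos injected with Dnmt1-V5-Dam, a fusion of the methyltransferase Dnmt1 with a V5 tag and the bacterial adenine methyltransferase Dam. The Dam-only group was made of 50 embryos injected with Dam without a partner. Embryos of both groups came from superovulated females of 5 weeks, of the BCF1 cross (C57BL/6 x CBA/CA), were cultured in M16 medium and were pooled at the 4- to 8-cell stage. The pools, the injected enzyme and the single library per group limit the design: the files hold no spread between embryos, and no difference between the libraries could be checked in a replicate.

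LTR elements are the endogenous retroviruses and their relatives. Each LTR can carry promoter and polyadenylation signals, and a solitary LTR is often what is left of a provirus after recombination. In early mouse embryos several LTR families are transcribed, and LTRs within introns can act as alternative promoters for their host genes. Dnmt1 copies CpG methylation onto the new DNA strand after replication, and methylation of LTRs is a main means of their silencing in mammals. Dam marks adenine in GATC, so a DamID peak reports that the fusion came near the site and carries no information on CpG methylation or on transcription of the element. The sequences under the peaks were not analysed here.

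LTR sequence was named at 7.02% of gene body peaks (exact 95% interval 6.19 to 7.91). Of the 887 LTR peaks at all locations, the 245 in gene bodies made up 27.6%. LTR was the only class at most of them. A single LTR was named at 219 peaks and several LTRs with no other class at 8, and a second class stood beside the LTR at 18 (7.35%, 4.41 to 11.4). That second class was a SINE at 10 peaks, a LINE at 4, a simple repeat at 3 and a DNA transposon at 1. Intervals here and below cover counting error only, since PCR products without molecular identifiers are not independent molecules and neighbouring peaks are not independent sites.

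Most of these peaks were low in both libraries. Across the 245 peaks the Dnmt1-Dam height, a whole number whose scaling is not stated, ran from 7 to 43 with a median of 9 (quartiles 7 and 10), and the Dam-only height ran from 1 to 6 with a median of 1 (quartiles 1 and 2). The lowest listed Dnmt1-Dam height, 7, was found at 75 peaks, height 8 at 47 and height 9 at 41. Every listed peak exceeds its Dam-only height by 6 or more and by a ratio of 2 or more, so that all ratios favour Dnmt1-Dam by selection and none is read as binding strength.

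**Figure D1:**
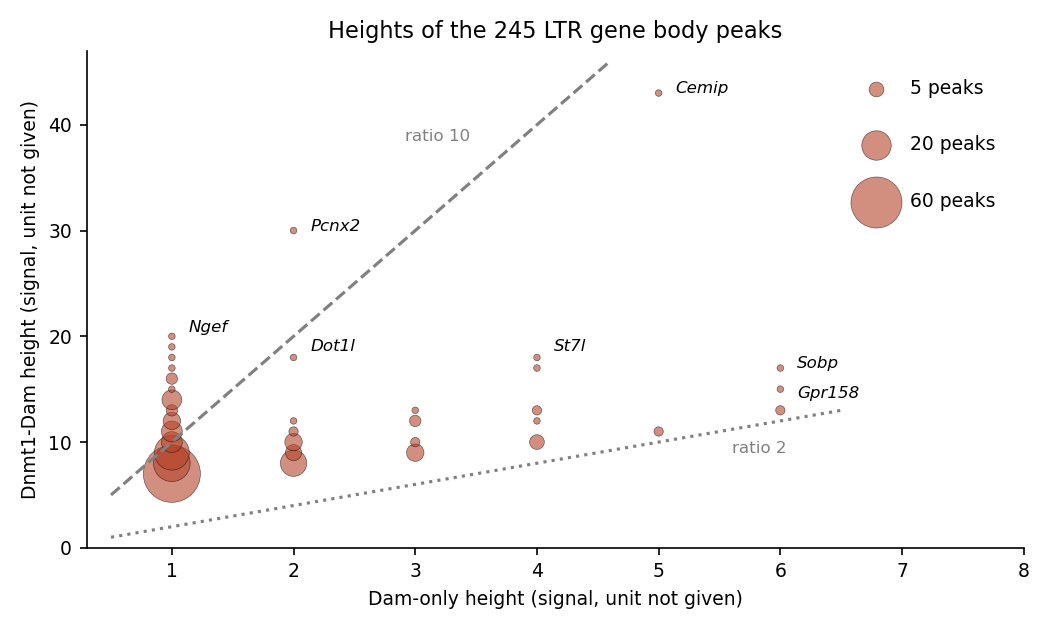
Dnmt1-Dam height against Dam-only height for the 245 LTR gene body peaks, with circle area giving the number of peaks at each pair of heights. Most peaks sit at a Dam-only height of 1, and the peaks in Cemip (43 against 5) and Pcnx2 (30 against 2) stand above the others; the dotted line marks a ratio of 2 and the dashed line a ratio of 10.

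The 10 highest peaks lay in 10 different genes. The highest was in Cemip (9930013L23Rik in the file), which encodes a hyaluronan-binding protein, with a height of 43 in Dnmt1-Dam embryos and 5 in Dam-only embryos. It lay on chromosome 7 at 91188541 (mm9, as all coordinates here), 46.5 kb from the start site of a gene of 152 kb. Next came Pcnx2 (Pcnxl2 in the file), a gene of the pecanex family of membrane proteins, with 30 in Dnmt1-Dam and 2 in Dam-only embryos on chromosome 8 at 128330471, 91.7 kb into the gene. Neither gene body held a further peak.

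The remaining 8 ranged from 17 to 20 in Dnmt1-Dam embryos and were separated by steps of 1. Ngef, a guanine nucleotide exchange factor of neurons that the file leaves unnamed, had 20 against 1 in Dam-only (chromosome 1, 89411681). A830018L16Rik had 19 against 1 on the same chromosome at 11579871. Fam155a (Tmem28 in the file), an auxiliary subunit of a sodium leak channel, had 18 against 1 on chromosome 8 at 9724371. Dot1l, a histone H3 methyltransferase active in transcribed chromatin, had 18 against 2 on chromosome 10 at 80232701, 14.8 kb from its start site. A high Dam-only height accompanied others of these peaks. St7l reached 18 against 4 (chromosome 3, 104713621). Medag (6330406I15Rik), a gene of adipocyte differentiation, reached 17 against 4 (chromosome 5, 150221061). Sobp reached 17 against 6 (chromosome 10, 42815361), whereas Pxylp1 (Acpl2), a phosphatase of proteoglycan synthesis, had 17 against 1 (chromosome 9, 96747691).

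The highest Dam-only heights marked positions where unfused Dam also gave signal. The Dam-only height of 6 was found at 4 peaks. Besides Sobp these were Gpr158, a receptor gene (15 in Dnmt1-Dam against 6, chromosome 2 at 21298761), Pdpr, the regulatory subunit of pyruvate dehydrogenase phosphatase (13 against 6, chromosome 8 at 113647151, 4930402E16Rik in the file), and the importin gene Kpna1 (13 against 6, chromosome 16 at 36011411). The Cemip peak, at 5 in Dam-only embryos, came next. The ratios of these 4 peaks were 2.83 in Sobp, 2.50 in Gpr158 and 2.17 in both Pdpr and Kpna1, close to the lowest listed ratio of 2.

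Set against the other gene body peaks, the LTR peaks could not be told apart by height beyond counting error. The median Dnmt1-Dam height was 9 in both classes. A height of 9 or more was reached by 123 LTR peaks (50.2%, 43.8 to 56.6) and by 54.2% of the other gene body peaks, where 52.9% of all listed peaks reach it; the difference was -4.03 percentage points (Newcombe 95% interval -10.5 to 2.41). A height of 15 or more was reached by 15 LTR peaks (6.12%, 3.47 to 9.90) against 9.18% of the others and 8.66% of the table (difference -3.06 points, -5.65 to 0.795). Only Cemip, Pcnx2 and Ngef reached 20, which is 1.22% of the LTR peaks (0.253 to 3.54) against 3.02% of the others and 2.63% of the table. Each of these 3 differences was negative, and each interval contained 0. With 1 peak, the highest, kept per host gene and class, the differences were -9.73 points at a height of 9 and -4.95 points at a height of 15, and both intervals lay below 0. This setting keeps a maximum, and the 3247 other peaks lay in 2315 genes where the 245 LTR peaks lay in 222. The other class, with more peaks per gene, is therefore raised more by construction. Its share at a height of 9 rose from 54.2% to 61.1%, and that of LTR peaks from 50.2% to 51.4%. Both differences are thus no measure of a lower height at LTR peaks.

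**Figure D2:**
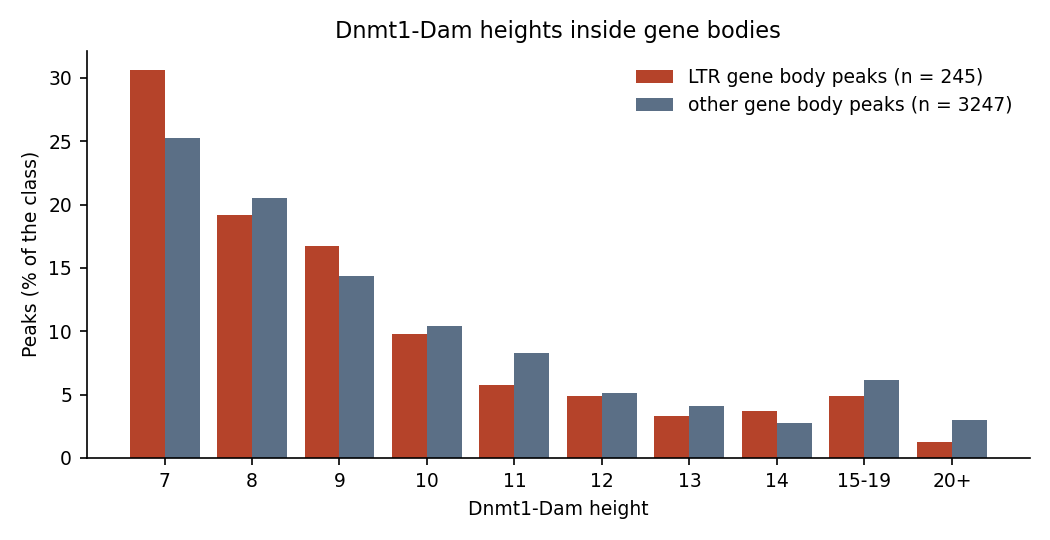
Share of peaks at each Dnmt1-Dam height, in percent of the class, for the 245 LTR gene body peaks (left bars) and the 3247 other gene body peaks (right bars). The LTR bar is the taller one at height 7 (30.6% against 25.3%) and the lower one at 20 and above (1.22% against 3.02%).

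Dam-only heights were low in both classes. A Dam-only height of 1 was found at 73.9% of LTR gene body peaks (67.9 to 79.3) and at 74.7% of the other gene body peaks (difference -0.868 points, -6.89 to 4.46). A Dam-only height of 4 or more was found at 17 LTR peaks (6.94%, 4.09 to 10.9) and at 5.67% of the others. The height ratio, Dnmt1-Dam over Dam-only, had a median of 7 at LTR peaks and 8 at the others. It was 10 or more at 48 LTR peaks (19.6%, 14.8 to 25.1) against 23.9% of the others, where 23.4% of all listed peaks pass this mark, and the interval of the difference, -9.00 to 1.33 points, contained 0. All but 1 of the 48 had a Dam-only height of 1. The exception was the Pcnx2 peak. With the highest peak kept per gene and class the difference at a ratio of 10 was -7.65 points, with an interval below 0. Under this choice of the highest peak the share of the others rose from 23.9% to 27.5%, and that of LTR peaks from 19.6% to 19.8%. The class with more peaks per gene is again the one raised more.

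Seen from the height, the LTR share of gene body peaks was 8.37% at a height of 7 (6.64 to 10.4), 6.60% at 8, 7.49% at 9 to 10, 6.12% at 11 to 14 (4.46 to 8.15) and 4.79% at 15 or more (2.71 to 7.78). The order was not a steady one, and the intervals of the lowest and the highest class overlapped. Seen from the Dam-only height, the LTR share was 6.94% at 1, 7.20% at 2, 6.16% at 3 and 8.46% at 4 or more. Among peaks with a Dam-only height of 1, where the ratio equals the Dnmt1-Dam height, a ratio of 10 or more was found at 47 of 181 LTR peaks (26.0%, 19.7 to 33.0) against 31.0% of the others (29.1 to 32.9). LTR peaks with a higher Dam-only height also had a higher Dnmt1-Dam height, with a median of 8 where Dam-only was 1, 11 where it was 4 and 14 where it was 6. Part of this order goes with the listing, in which every Dnmt1-Dam height exceeded its Dam-only height by 6 or more. The thresholds behind the listing are not stated.

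Among the other classes, SINE peaks of gene bodies were the ones whose heights differed from the LTR peaks, at some thresholds but not at all. Short interspersed elements (SINEs) depend on other elements for their spread. A height of 15 or more was reached by 6.12% of LTR gene body peaks and by 10.8% of the 632 gene body peaks with a SINE and no LTR (difference -4.64 points, -8.20 to -0.313). A ratio of 10 or more was found at 19.6% of LTR peaks and 28.6% of SINE peaks (difference -9.05 points, -14.8 to -2.65). At a height of 9 or more the difference from SINE peaks was -5.65 points (-12.9 to 1.68), and the median height was 9 in both. Against the 183 gene body peaks with a LINE and no LTR, which include some that also name a SINE, the LTR peaks differed by -1.53 points at height 15 (-6.87 to 3.28) and by -1.72 points at a ratio of 10 (-9.61 to 5.87). Against the 584 LTR peaks in intergenic DNA the differences were -1.93 points (-5.37 to 2.28) and -2.33 points (-8.03 to 3.95). Intervals that contain 0 do not show that the classes are alike.

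In 102 genes an LTR peak and another gene body peak stood side by side, which allows a comparison inside the same gene. The median height of the LTR peaks was above that of the gene's other peaks in 41 genes, below it in 48 and equal in 13. Over these genes the 118 LTR peaks had a median of 9 and the 192 other peaks a median of 8. Neither kind was the higher one in most genes.

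The host genes of LTR peaks were long. The median host length was 155 kb over the 245 LTR peaks (order-statistic 95% interval of the median 128 to 186) and 107 kb over the other gene body peaks (102 to 113). Hosts over 100 kb carried 63.3% of LTR peaks (56.9 to 69.3) against 52.4% of the others, a difference of 10.8 points (4.42 to 16.9). Hosts over 500 kb carried 17.6% against 11.8% (difference 5.79 points, 1.38 to 11.1), and hosts under 30 kb carried 11.4% against 17.8% (difference -6.40 points, -10.1 to -1.64). These differences exceed counting error. Among peaks with a height of 9 or more, however, the difference for hosts over 100 kb was 5.61 points and its interval contained 0. With the highest peak kept per gene and class it was 19.2 points (12.3 to 25.6). Under this setting the share of the others fell from 52.4% to 42.5%, and that of LTR peaks from 63.3% to 61.7%. The setting drops peaks of genes with several, most of them from the other class. The larger difference is thus not read as a stronger result. Against LINE peaks, of which 63.4% lay in hosts over 100 kb, the difference was -0.123 points (-9.20 to 9.11). Against SINE peaks, of which 41.0% did, it was 22.3 points (15.0 to 29.2).

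Read by host length, the LTR share of gene body peaks was higher in each longer class. It was 4.61% in genes under 30 kb (3.09 to 6.60), 6.04% from 30 to 100 kb (4.66 to 7.67), 7.10% from 100 to 300 kb (5.63 to 8.82) and 9.98% above 300 kb (7.99 to 12.3). The interval of the longest class overlapped that of the class from 100 to 300 kb and lay above those of both shorter classes. The SINE share was 22.2% in the shortest class and 11% in the longest, and the LINE share 2.64% and 7.36%. How much LTR, LINE and SINE sequence the genes of each length hold was not analysed here, and the shares are therefore no measure of enrichment.

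**Figure D3:**
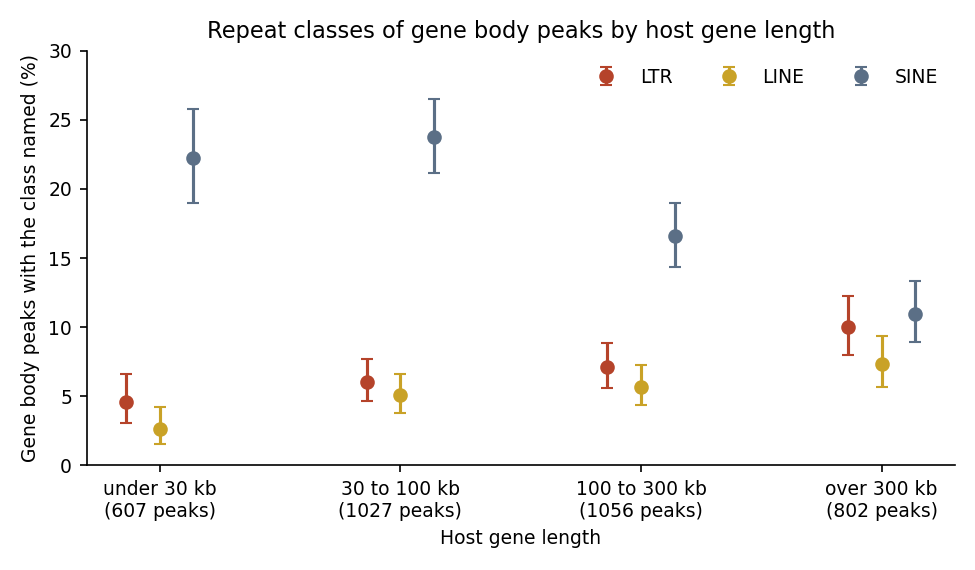
Share of gene body peaks at which LTR, LINE or SINE is named, in percent with exact 95% intervals, in 4 classes of host gene length; numbers under the axis count all gene body peaks of the class. The LTR share is 4.61% below 30 kb and 9.98% above 300 kb, and the SINE share 22.2% and 11%.

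LTR peaks were less often close to either end of the gene than the other gene body peaks as a whole. The median distance from the start site was 56.6 kb (45.6 to 69.4) for LTR peaks and 45.2 kb (41.3 to 48.4) for the others. Within 10 kb of the start site lay 29 LTR peaks (11.8%, 8.07 to 16.6) against 17.1% of the others (difference -5.23 points, -8.94 to -0.413). More than 100 kb from it lay 36.7% against 30.2% (difference 6.49 points, 0.485 to 12.9). Within 10 kb of the gene's end lay 31 LTR peaks (12.7%, 8.76 to 17.5) against 21.3% of the others (difference -8.66 points, -12.5 to -3.72). Against LINE peaks alone, of which 12% lay within 10 kb of the start site and 9.29% within 10 kb of the end, the differences were -0.185 points (-6.69 to 5.91) and 3.36 points (-2.86 to 9.21). Against peaks with no repeat named the start site difference was -3.72 points (-7.51 to 1.14). With the highest peak of any kind kept per 1 kb run, the start site difference from all others was -4.77 points (-8.65 to 0.238). With the highest kept per gene and class the end difference was -14.3 points (-18.3 to -9.10). Under the per-gene setting the share of the others near the end rose from 21.3% to 26.0%, and that of LTR peaks went from 12.7% to 11.7%. This setting drops more peaks from the other class, so the larger end difference is not read as a stronger result. Among peaks with a height of 9 or more the differences near the start site and near the end were -3.46 and -7.13 points, and among those with a height of 15 or more they were 4.56 and -19.1 points. All 4 of these intervals contained 0. Host length moved with these results. Within single classes of host length, the intervals of 4 of 4 differences near the start site and 4 of 4 near the end contained 0, and the start site difference was -10.1 points in the shortest class and 2.36 points in the longest. How much of the differences goes with host length was not tested.

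The LTR share was also counted by distance from the start site, on the genome and not per gene. It was 4.97% within 10 kb, 6.48% from 10 to 30 kb, 7.16% from 30 to 100 kb, 7.52% from 100 to 300 kb and 10.3% beyond 300 kb (7.25 to 14). Peaks beyond 300 kb can lie in long genes alone, so that distance and host length are not separate observations.

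As a share of the gene's length, LTR peaks were spread rather evenly. With the host gene divided into 4 equal parts from its start site, the first part held 22.4% of them, the second 26.5%, the third 28.6% and the last 22.4%. That last part held 28.0% of the other gene body peaks (difference -5.58 points, -10.6 to 0.251) and 30.7% of the gene body peaks with no repeat named (difference -8.23 points, -13.4 to -2.31). In hosts of 100 to 300 kb the last part held 8 of 75 LTR peaks (10.7%) against 27.5% of the others (difference -16.9 points, -22.8 to -7.46), while in hosts over 300 kb it held 27.5% and 27.4%. In the same class of 100 to 300 kb a ratio of 10 or more was found at 10.7% of LTR peaks against 25.5% of the others (difference -14.8 points, -20.7 to -5.45). These were the 2 intervals without 0 among 20 computed within length classes.

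**Figure D4:**
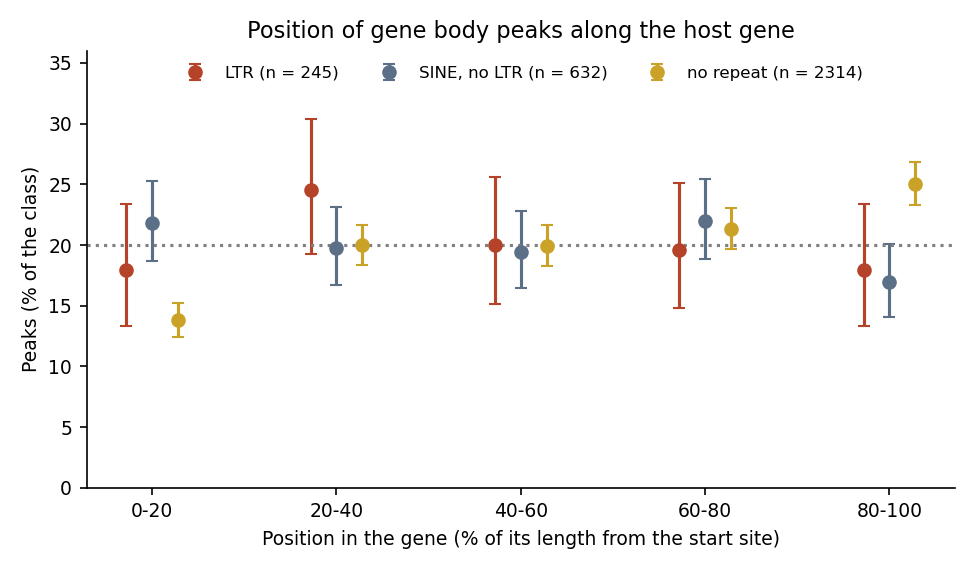
Share of peaks in 5 equal parts of the host gene, from the start site (left) to the end (right), in percent of the class with exact 95% intervals; the dotted line at 20% is an even spread. LTR peaks are at 24.5% in the second part, and peaks with no repeat named run from 13.8% next to the start site to 25% in the part next to the end.

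Gene body peaks begin beyond 1 kb downstream of the start site, nearer positions being classed as promoter. The nearest LTR peak was in Sars2, the mitochondrial seryl-tRNA synthetase gene, 1.18 kb from the start (7 in Dnmt1-Dam against 1 in Dam-only, chromosome 7 at 29528191). It was followed by the makorin gene Mkrn2 at 2.52 kb (7 against 1, chromosome 6 at 115554471). The mannosyltransferase gene Alg12 followed at 2.68 kb (11 against 2, chromosome 15 at 88647071). Naa20 (Nat5), a catalytic subunit of an N-terminal acetyltransferase, had a peak at 3.23 kb (7 against 1, chromosome 2 at 145732211). None of these 4 passed a ratio of 10. The LTR peaks just outside the class on that side lay in promoters, at -1195 bp from the start site of Tmx3 (11 against 1), -1202 bp from that of Tcf25 and -1253 bp from that of Rpl10a (7 against 1 each). Between the Tmx3 and the Sars2 position no LTR peak was listed, counted from the start site of the gene assigned to it.

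At the far end the class ran up to the listed end of the gene. The LTR peak nearest to a gene's end was in Eif4g2, a translation initiation factor gene (8 in Dnmt1-Dam against 2 in Dam-only), 142 bp inside. Gstz1 followed at 252 bp (14 against 1). Just outside, an LTR peak of 21 against 3 lay beyond the end of 4931406B18Rik, at -203 bp on the same scale, and counts as intergenic. Peaks of like position were thus put in different classes by the listed gene end.

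The 245 peaks fell into 222 host genes, which is 9.12% of the 2435 genes with any gene body peak. A single LTR peak was found in 203 genes, and 19 genes held 2 or more, 42 peaks in all. With only the highest peak kept per 1 kb run, 13 genes held 2 or more, so close pairs account for part of the 19. The median length was 443 kb for genes with 2 or more (65.7 to 1105) against 147 kb for those with 1 (116 to 169), and the intervals overlapped. The LTR peak or peaks were the only gene body peaks in 120 of the 222 genes. The 222 LTR hosts had a median length of 150 kb (120 to 176), against 76.4 kb (71.0 to 81.5) for the 2213 genes with gene body peaks but none in an LTR. The LTR hosts held 437 gene body peaks of any kind, and the 2213 genes held 3055. A gene with more gene body peaks has more chances to count as an LTR host, and long genes have more room for peaks. How much of the gap in length goes with this was not tested.

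Macrod2, an ADP-ribosylhydrolase gene of 1995 kb on chromosome 2, held 4 LTR peaks, more than any other gene. They lay at 141385671 (10 in Dnmt1-Dam against 1 in Dam-only), 141432641 (7 against 1), 141617861 (10 against 1) and 141617961 (14 against 1), between 58.4% and 70.0% of the way through the gene. The positions 141617861 and 141617961 are 100 bp apart and form a close pair. The peak at 141617961 was also the LTR peak farthest from any start site, at 1397 kb. Ctnna3, an alpha-catenin gene of 1573 kb, held 3 on chromosome 10. They lay at 63572001 and 63572121 (9 against 1 each), a close pair 120 bp apart, and at 63709801 (12 against 1). The LTR peak of Csmd1, a gene of 1643 kb, lay 1371 kb from the start with 7 against 1.

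Several other genes with repeated LTR peaks were shorter and owed them to a close pair alone. Rnf115 (Zfp364), a ubiquitin ligase gene, had 13 against 1 and 7 against 1 at positions 110 bp apart on chromosome 3. Pik3r5, a regulatory subunit gene of phosphoinositide 3-kinase, had 12 against 1 and 11 against 1, also 110 bp apart, on chromosome 11. Ccdc172 (1700011F14Rik) had 14 against 1 and 8 against 1 at the same spacing on chromosome 19. By contrast Alk, a receptor tyrosine kinase gene, had peaks of 14 against 1 and 10 against 1 at 72356901 and 72661701 on chromosome 17, and the ubiquitin ligase gene Trim2 had 16 against 1 and 9 against 3 at 83987951 and 83973761 on chromosome 3. These lay far apart. Agbl4, Caln1, Auts2, Ahcyl2, Rbms3, Lyzl4, Syn3, Fancc, Oxr1, Epha6 and Rftn1 held 2 LTR peaks each.

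Another peak within 1 kb was found for 23 LTR gene body peaks (9.39%, 6.04 to 13.8) and for 12.1% of the other gene body peaks (difference -2.75 points, -6.01 to 1.69). Among peaks with a height of 9 or more the difference was -6.06 points (-9.38 to -0.295). The neighbour was a further LTR gene body peak for 18 of the 23, so that 9 pairs formed, and for the other 5 it named no LTR. The members of the 9 pairs were 80 to 240 bp apart, less than the fragments of around 300 bp that were selected for sequencing. The peaks of a pair can share fragments and are not independent sites. Merging the LTR gene body peaks among themselves at 1 kb left 236 of the 245.

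Few of these peaks lay near CpG islands. None of the 245 was in an island, which allows a share of up to 1.22% and so does not separate them from the other gene body peaks, of which 0.647% were. Shores held 8 (3.27%, 1.42 to 6.33) and shelves 8, and any island context 6.53% against 7.85% of the others (difference -1.32 points, -3.98 to 2.59). The highest shore peaks were in Glb1, the lysosomal beta-galactosidase gene (12 in Dnmt1-Dam against 1 in Dam-only, chromosome 9 at 114369101), Tut4 (Zcchc11), an RNA uridylyltransferase gene (12 against 3, chromosome 4 at 108163361), and P2rx7, an ATP-gated channel gene (12 against 4, chromosome 5 at 123136041). Irak2, a kinase gene of innate immune signalling, had 8 against 2 (chromosome 6, 113623321), as did Stim1, a calcium sensor gene (chromosome 7, 109520671).

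On single chromosomes the LTR share of gene body peaks ranged from 3.21% on chromosome 12 (5 of 156) to 10.2% on chromosome 10 (17 of 167) among the autosomes. The exact interval held the overall share of 7.02% on 20 of the 20 chromosomes with gene body peaks. The X chromosome held 5 of the 245 LTR peaks (2.04%, 0.666 to 4.70) against 2.16% of the other gene body peaks. They lay in Dock11, F8, Ptchd1, Gpm6b and Mid1. The highest of these was in Mid1, a gene for a microtubule-associated ubiquitin ligase, with 13 in Dnmt1-Dam against 4 in Dam-only.

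**Figure D5:**
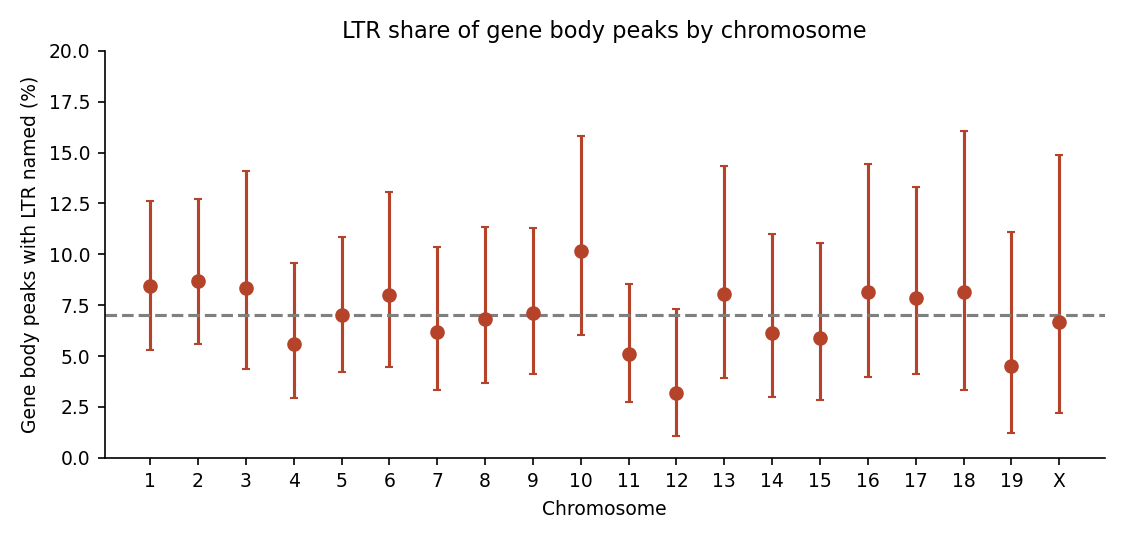
Share of gene body peaks with LTR named on each chromosome, in percent with exact 95% intervals; the dashed line is the share over all chromosomes, 7.02%. Every interval crosses the line, with the lowest value on chromosome 12 (3.21%) and the highest on chromosome 10 (10.2%).

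Host genes were also counted by function. A list of 40 neuronal adhesion and synapse genes included 33 with a gene body peak, of which 6 (18.2%) had an LTR peak, where 9.12% of all gene body hosts did. The hosts in this list are long, with a median of 900.1 kb, and per peak the LTR share was 6.45% (6 of 93, 2.40 to 13.5), next to 7.02% over all gene body peaks. The highest was in Nrxn3, a presynaptic neurexin gene, with 16 in Dnmt1-Dam against 1 in Dam-only on chromosome 12 at 91243321, 1051 kb from the start. Dcc, a netrin receptor gene, had 10 against 3. Opcml, a cell adhesion gene, had 9 against 2, and the scaffold gene Magi2 had 7 against 1. Csmd1 and Csmd3 also had 7 against 1 each.

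Genes of DNA methylation and retroelement silencing carried no LTR gene body peak. Of the 36 listed, 5 had a gene body peak, 6 peaks in all, so the 0 of 6 allows a share of up to 50%. Of 32 germline and piRNA genes, 6 had gene body peaks, 9 in all, and 0 were in LTRs, which allows a share of up to 33.3%. Of 44 imprinted genes, 9 had a gene body peak and 1 an LTR peak. This was Usp29, a paternally expressed gene, with 7 in Dnmt1-Dam against 1 in Dam-only on chromosome 7 at 6765881. None of these 3 lists held enough peaks to place its LTR share above or below that of all hosts.

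Among gene families taken by symbol, zinc finger genes named Zfp had 25 gene body peaks in 25 hosts, of which 3 were in LTRs (12%, 2.55 to 31.2). These were Zfp385b (13 in Dnmt1-Dam against 4 in Dam-only), Zfp992 (12 against 3), which the file describes as a KRAB box protein, and Zfp267 (7 against 1). KRAB zinc finger proteins are known as sequence-specific repressors of endogenous retroviruses. Solute carrier genes had 79 gene body peaks in 59 hosts, of which 2 were in LTRs (2.53%, 0.308 to 8.85). These lay in the carnitine transporter gene Slc22a16 (10 against 1) and in Slc5a11, a sodium-coupled inositol transporter gene (9 against 2). Receptor phosphatase genes named Ptpr had 32 gene body peaks in 9 hosts and 1 LTR peak, in Ptprr (13 against 1). For Ptpr genes this was 3.13% (0.0791 to 16.2). The intervals of these 3 families contain the 7.02% of all gene body peaks.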

How the data were processed

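DamID libraries of Dnmt1-Dam and Dam-only embryos, 1 each, were compared. Per the labels' protocols, DNA was adapter-ligated, amplified by 15 cycles of PCR and selected around 300 bp. BWA, CASAVA and build mm9 are named in the submitters' processing notes. The peak caller, its thresholds and the handling of repeat-mapped and duplicate reads were not stated in the labels or the file. LTRs are repeated, so that handling could change these heights. The authors deposited for each peak a signal height per library, of unstated scale, with its position, repeat classes, CpG island context, location class and gene. The depth of the libraries is unknown. All value columns belong to these libraries.

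Heights were used as listed, as signal and without a count model. Distances, gene lengths and shares were computed from the table with Python 3.11.15, NumPy 2.4.6, SciPy 1.17.1 and pandas 2.3.3. Shares have exact Clopper-Pearson intervals and differences Newcombe intervals, at 95%. The limit given for a count of 0 is 3 counts over the class size. No p-value was computed, since 1 library per group gives no replicate and peaks are not replicates. Differences in which repeats are named were left out of the count, since the choice of peaks by repeat class sets them in part. Apart from these and from the alternatives below, 26 differences were taken against all other gene body peaks, and 6 intervals lay clear of 0. All of those 6 concern host length or distance from a gene's ends. Intervals were checked on simulated data with independent peaks, which cannot show how they hold for close peaks or peaks of 1 gene. All 245 peaks were matched to RefSeq genes (GRCm38.p6 table, names alone), 12 of them by accession because the file gives no name.

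Members, lists and comparisons were chosen with earlier results of these data known. Named genes were the hosts of the 10 highest peaks, the 5 with the highest Dam-only height, the 5 nearest to and 3 farthest from a start site, the 8 genes with most LTR peaks, the 5 highest shore or island peaks and up to 4 per list; the border and X chromosome examples and Csmd3 were added after their values were seen. A few genes that this rule names are not reported here. Alternatives were height thresholds, 1 peak per run or per gene, stricter naming of LTR, autosomes, Dam-only height 1, a pseudocount of 1 and other windows.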

Additional observations from a re-analysis of the deposited data

How the results depend on the processing

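Over 16 results and 90 alternatives, 72 alternatives left the interval of a difference on the same side of 0, or still around 0, or left a value or count near the reported one. Differences here are in percentage points, LTR minus other gene body peaks. In 4 of the 72 a small difference changed sign with 0 inside both intervals: the share at a Dam-only height of 1 (0.452 with LTR named first, 0.690 with LTR as the only class, 1.05 with 1 peak per gene and class) and the X chromosome share (0.0587 with LTR as the only class). With heights of 9 or more, the differences within 10 kb of the start site (-3.46), within 10 kb of the gene's end (-7.13) and in hosts over 100 kb (5.61) had intervals that included 0, while the difference for another peak within 1 kb (-6.06) had one that did not. With heights of 15 or more, the start site difference turned to 4.56, with 20% of LTR peaks against 15.4% of the others and an interval of -9.16 to 30.0. The end difference was then -19.1 and the host length difference 7.99, both with intervals that included 0, and the LTR share of gene body peaks was 4.79%. Fewer peaks widen these intervals by construction. The number of LTR host genes was 114 at a height of 9 and 15 at a height of 15, genes with 2 or more LTR peaks numbered 7 and 0, and the neuronal list held 3 LTR hosts at a height of 9. Keeping the highest peak of any class per 1 kb run left 234 LTR peaks and gave -4.77 for the start site, with 0 inside the interval. Genes with 2 or more LTR peaks then numbered 13 against 19 as reported, a fall that is counted among the 72. Keeping the highest peak per gene and class gave an LTR share of 8.75%. The differences were then -9.73 for a height of 9, -4.95 for a height of 15 and -7.65 for a ratio of 10, with intervals that lay below 0, while the host length difference was 19.2 and the end difference -14.3. Genes with several peaks enter with their highest under this setting, which raises the heights of the class with more peaks per gene, the other gene body peaks. The differences in height and ratio under it are therefore not read as lower heights at LTR peaks. The setting also drops peaks unequally, leaving 2315 of the 3247 other peaks and 222 of the 245 LTR peaks. The larger host length and end differences and the LTR share of 8.75% are thus not read as stronger results. No other cause was tested. No paired analysis was possible because each group has 1 library. Library depth is unknown, which limits every height, and the precision of the shares rests on 245 peaks.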
